A study of Mus musculus with 6 samples.

Results

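Toll-like receptors are the sensors with which a macrophage recognises microbial products, and the genes described here are 5 of these receptors (Tlr2, Tlr3, Tlr4, Tlr7 and Tlr9), the co-receptors Cd14 and Ly96, the adaptor Myd88 and the kinases Irak1 and Irak4. The members were a fixed list of symbols, matched by Ensembl identifier, and all 10 were found among the 16665 genes of the table. Of them 8 had a mean of at least 1 FPKM (fragments per kilobase of gene, scaled to sequencing depth) over the 6 libraries and entered the test, as did 10166 genes in all. Tlr3 and Tlr9 lay under that level.

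The cells were RAW264.7, a mouse macrophage-like line that came from a leukaemia, and every library comes from transfected cells of this 1 line. In 3 libraries, labelled mimic, the genotype tag gives miR-125b overexpression. The other 3 are labelled NC, with a genotype tag of miR-125b WT, and the labels neither spell out NC nor say what those cells received. The sources used here state no dose, no time after transfection, no stimulation of the receptors and no strand of the microRNA for the mimic, and no level of the mature microRNA was analysed here. Separate cultures within a group are not stated either, so the spread behind each p-value may be technical only.

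In outline, TLR2 at the cell surface binds bacterial lipoproteins as a partner of TLR1 or TLR6, and TLR4 binds lipopolysaccharide (LPS). LPS is handed to TLR4 by CD14 and held by MD-2, the protein that Ly96 encodes. TLR3, TLR7 and TLR9 sit in endosomes and bind double-stranded RNA, single-stranded RNA and unmethylated CpG DNA. All of these except TLR3 signal through MYD88, which assembles IRAK4 and then IRAK1 and so switches on NF-κB and interferon regulatory factors. Macrophages are the classical responders to LPS, and RAW264.7 cells are often used to study that response.

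The mature miR-125b-5p sequence (RefSeq, GRCm38.p6) is shown because the mimic is labelled for this microRNA, with the seed, bases 2 to 8, in capitals. Below it stand the members' own matches in their longest annotated 3′ untranslated region (3′ UTR; GENCODE M21), with the match in capitals and flanking bases in lower case.
miR-125b-5p: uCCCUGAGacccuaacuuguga
Myd88: tcatggtccctCTCAGGGtacaccccagg
Irak4: gttaaacaacgTCAGGGAaccttcacaac
The Myd88 match pairs with all of bases 2 to 8 and lies on GRCm38 chromosome 9 (minus strand, 119336198 to 119336204), at position 717 of a 3′ UTR of 987 bases. The Irak4 match pairs with bases 2 to 7 and is followed by an A; it lies on the plus strand of chromosome 15, bases 94580028 to 94580034, at position 126 of 1913. The letters searched were CTCAGGGA, CTCAGGG and TCAGGGA, on the transcript strand, and a shorter match inside a longer one was not counted again. So 2 of 10 members held a match, beside 2064 of 9312 tested genes with a 3′ UTR (22.2%), and no receptor was among them. For the passenger strand of the Mir125b-2 hairpin, Tlr4 held a match to bases 2 to 7 followed by an A (chromosome 4, plus strand, bases 66842433 to 66842439), shown here below that strand; the letters searched were TGACTTGA, TGACTTG and GACTTGA.
miR-125b-2-3p: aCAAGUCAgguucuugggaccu
Tlr4: actctctgaagGACTTGAgaacattttgg
Matches to that strand were present in 20.4% of tested genes. A match is a description of the letters, not a measured site of binding.

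Depth recovered from the steps of low values was 14450000 to 16810000 fragments per library, so counting error was small for the abundant members. The macrophage markers fixed for the check were present: all 8 (Adgre1, Cd68, Csf1r, Itgam, Spi1, Lyz2, Ptprc and Fcgr1) reached 1 FPKM, with a summed level of 7010 to 8460 FPKM in NC and 6260 to 6510 FPKM in mimic libraries. Lyz2 carried the sum and lay lower in all mimic libraries; without it the sums of the other 7 were 491 to 656 and 484 to 540 FPKM and overlapped. Ptprc lay higher in all mimic libraries (log2 fold change 0.41, SE 0.15), and the remaining 6 overlapped; their part in the results below was not tested. Of the markers listed for T cells, B cells, neutrophils, fibroblasts and endothelium, Cd3d, Cd4, Cd79a, Ly6g, Col1a1, Pdgfrb and Kdr had values, and 0 reached 1 FPKM in any library. The highest summed level of a list was 0.484 FPKM in NC (B cell) and 0.588 FPKM in mimic libraries (neutrophil); the other markers, all epithelial ones included, were not analysed here. NC library 3 stood apart, with 13266 genes above 0 against 15141 to 15470 in the other 5. On log2(FPKM + 1) it correlated at 0.9745 with mimic library 3 and at 0.9442 and 0.9458 with NC libraries 1 and 2. In bulk samples, fewer cells of a type and less RNA per cell cannot be told apart.

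No member passed the test. By limma on log2(FPKM + 1), adjusted over all tested genes, 0 of 8 members were called at an adjusted p of 0.05, beside 0 of 10166 genes (0.0%), and limma voom on recovered fragments called 0 members as well. At an unadjusted limma p under 0.05, 3 members (Tlr4, Tlr7 and Ly96) were higher with the mimic and 0 were lower. The shares of all tested genes were 7.96% higher and 5.26% lower. By voom 2 members were higher and 0 lower, beside 904 and 485 of 10137 genes. The 3 mimic values all lay above the 3 NC values in 1 of the 8, Tlr4 (12.6% of tested genes), and all below in 0 (7.49%). The median log2 fold change, mimic minus NC, was 0.16 over the 8 and 0.041 over all tested genes. The median over the 8 was 0.061 without NC library 3, 0.10 without mimic library 2, 0.25 without NC library 2 and 0.28 without mimic library 3. In the same order, the median over all tested genes was −0.0064, 0.031, 0.058 and 0.066. With each library rescaled to the same sum of FPKM, the median of all genes moved to 0.15, so fold changes under that scaling are read relative to it.

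**Figure D1:**
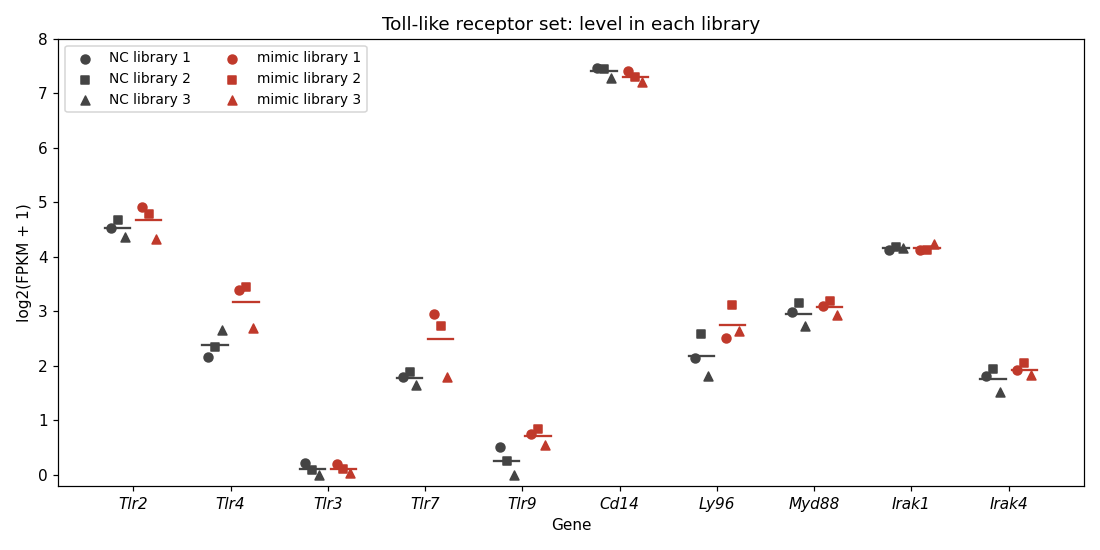
Level of each of the 10 genes as log2(FPKM + 1) in 3 NC libraries (grey) and 3 mimic libraries (red), with the library number shown by the symbol and the group mean of the log2 values by a line. Tlr4 and Tlr7 are high in mimic libraries 1 and 2, while mimic library 3 (5.52 and 2.48 FPKM) lies near the NC values.

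Among the surface receptors, Tlr4 differed most. Tlr4 (ENSMUSG00000039005; GRCm38 chromosome 4, 66827584 to 66930284, plus strand) read 3.50, 4.07 and 5.34 FPKM in NC libraries 1, 2 and 3 and 9.46, 9.85 and 5.52 FPKM in mimic libraries 1, 2 and 3. Mimic libraries 1 and 2 lay well above every NC library, and mimic library 3 lay just above NC library 3, so the groups did not overlap. The means were 4.30 ± 0.941 and 8.28 ± 2.39 FPKM (SD, n = 3), a ratio of 1.92 and a log2 fold change of 0.79 (SE 0.23, limma adjusted p = 0.332). These values rest on 303 to 909 fragments per library. Without NC library 3 the call changed, to a log2 fold change of 0.92 (limma adjusted p = 0.0315), and without mimic library 3 the value was 1.02 (adjusted p = 0.273).

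Tlr2 was the more abundant surface receptor and showed no such gap. It read 22.1, 24.7 and 19.7 FPKM in the NC libraries and 29.0, 26.7 and 19.0 FPKM in the mimic libraries. Mimic libraries 1 and 2 were the highest of the 6 and mimic library 3 was the lowest, so the groups overlapped. The log2 fold change was 0.15 (SE 0.18, limma adjusted p = 0.735). Without mimic library 3 the Tlr2 value was 0.32, without mimic library 1 it was 0.030 and without mimic library 2 it was 0.088, none of them passing.

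Of the endosomal receptors, Tlr7 was the one above the filter. Tlr7 (ENSMUSG00000044583; chromosome X, 167304929 to 167330558, minus strand) read 2.48, 2.68 and 2.13 FPKM in the NC libraries and 6.72, 5.64 and 2.48 FPKM in the mimic libraries. As for Tlr4, mimic libraries 1 and 2 were well above all NC libraries, but mimic library 3 lay within the NC range. The means were 2.43 ± 0.278 and 4.95 ± 2.20 FPKM (SD, n = 3), a ratio of 2.03 and a log2 fold change of 0.72 (SE 0.29, limma adjusted p = 0.364). It was 1.06 without mimic library 3 (adjusted p = 0.273) and 0.49 without mimic library 1 (adjusted p = 0.759).

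Tlr9 and Tlr3 were near the limit of detection. Tlr9 had 23, 11 and 0 fragments in the NC libraries and 34, 46 and 25 in the mimic libraries, or 0.424, 0.188 and 0 against 0.677, 0.797 and 0.467 FPKM. The 0 in NC library 3 allows up to 0.0586 FPKM, the level of 3 fragments there (counting error only; fragments without molecular identifiers are not independent molecules). Every Tlr9 mimic value was above every NC value, and an exact two-sided permutation test of the FPKM means gave p = 0.1, the smallest that 3 against 3 libraries can give. The nearest values, 23 fragments in NC library 1 and 25 in mimic library 3, lay within counting error of each other. With no filter, 2 of the 10 members lay higher with no overlap, beside 1805 of 16665 genes. Tlr3 had 13, 6 and 0 fragments in the NC libraries and 11, 7 and 2 in the mimic libraries (exact two-sided permutation p = 0.9). At no more than 0.160 FPKM in any library, a difference in Tlr3 was not detectable at this depth.

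The LPS co-receptors differed widely in level. Cd14 (ENSMUSG00000051439), the anchored protein that delivers LPS, was the most abundant member, with 176, 174 and 155 FPKM in the NC libraries and 170, 156 and 146 FPKM in the mimic libraries. Library 3 was the lowest of each group and the groups overlapped. The log2 fold change of Cd14 was −0.097 (SE 0.11, limma adjusted p = 0.731). Its sign turned once the trend with length and GC content was removed (0.051) and under quantile normalisation (0.045). With equal library sums Cd14 stood at 0.0075, under the median of all genes there (0.15).

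Ly96 (ENSMUSG00000025779), the LPS-binding partner of TLR4, read 3.45, 5.01 and 2.53 FPKM in the NC libraries and 4.68, 7.73 and 5.22 FPKM in the mimic libraries. Library 2 was the highest of each group, and NC library 2 lay above mimic library 1. The log2 fold change was 0.57 (SE 0.24, limma adjusted p = 0.377). It rests on 38 to 131 fragments, the fewest of any tested member, since its exons span 1021 bases.

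For the adaptor and for each kinase, the NC and mimic values overlapped. Myd88 read 6.97, 7.90 and 5.67 FPKM in the NC libraries and 7.55, 8.18 and 6.69 FPKM in the mimic libraries, with library 3 lowest in each group (log2 fold change 0.12, SE 0.15, limma adjusted p = 0.749). Its value was 0.26 after removal of the trend with length and GC (adjusted p = 0.473) and 0.0053 without NC library 3 (adjusted p = 0.979). Irak1, the kinase released from the receptor complex, varied least: 16.5, 17.2 and 16.8 FPKM in the NC libraries and 16.5, 16.5 and 17.8 FPKM in the mimic libraries (0.0065, SE 0.10, limma adjusted p = 0.986).
Irak4, which phosphorylates IRAK1, read 2.54, 2.83 and 1.86 FPKM in the NC libraries and 2.80, 3.14 and 2.55 FPKM in the mimic libraries (0.18, SE 0.16, limma adjusted p = 0.650; 0.054 without NC library 3). Neither of the 2 members with a miR-125b-5p match, Myd88 and Irak4, passed the test, and both had log2 fold changes above 0. On the opposite strand Acaa1a overlaps 11.3% of the exon bases of Myd88 and Twf1 overlaps 7.9% of those of Irak4, as Gm45542 does 7.3% of those of Tlr3. The sources used here do not state the strand setting of the counting, so reads of these neighbours cannot be told apart from those of these members; neither match lies in the overlap.

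**Figure D2:**
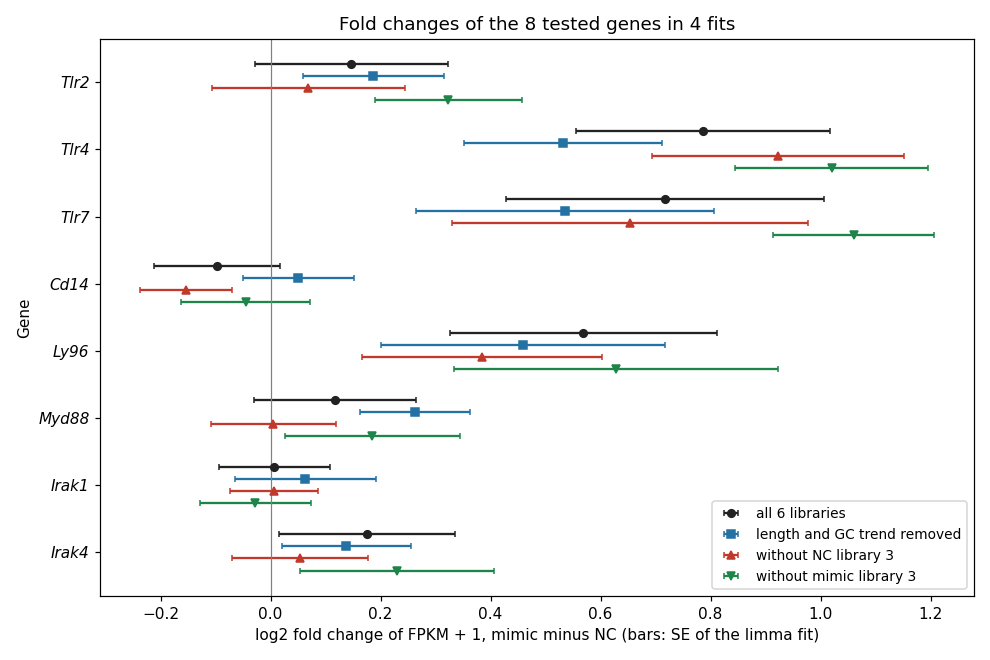
Log2 fold change of FPKM + 1, mimic minus NC, with the SE of the limma fit as bars, for the 8 tested genes with all 6 libraries, with the length and GC trend removed, without NC library 3 and without mimic library 3. Tlr4 and Tlr7 stay above 0 in all 4 fits and are higher without mimic library 3 (1.02 and 1.06) than with it (0.79 and 0.72), and Cd14 lies on both sides of 0.

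Ordered by mean FPKM over the 6 libraries, the members ran Cd14 (163), Tlr2 (23.5), Irak1 (16.9), Myd88 (7.16), Tlr4 (6.29), Ly96 (4.77), Tlr7 (3.69), Irak4 (2.62), Tlr9 (0.425) and Tlr3 (0.0801). The steps from Cd14 to Tlr2, Irak1 and Myd88, and from Irak4 to Tlr9, held in all 6 libraries with no overlap of the ranges in either group. Between Tlr4, Ly96, Tlr7 and Irak4 the ranges of neighbours overlapped in both groups, so the order within each neighbouring pair is not beyond the spread. Genes further apart could still separate. Tlr4 (3.50 to 5.34 FPKM in NC, 5.52 to 9.85 in mimic libraries) lay wholly above Irak4 (1.86 to 2.83 and 2.55 to 3.14). Myd88 lay above Tlr4 in all NC libraries, but Tlr4 lay above Myd88 in mimic libraries 1 and 2.

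Some ratios between members, chosen after the values were seen and given with no test, show how the make-up of the set varied. Cd14 exceeded Tlr4 by 50.5, 42.7 and 29.1 times in the NC libraries and by 18, 15.8 and 26.5 times in the mimic libraries, on the FPKM scale. The groups did not overlap, and library 3 of each group lay nearest to the other group. Tlr4 over Ly96 was 1.01, 0.812 and 2.11 in the NC libraries and 2.02, 1.28 and 1.06 in the mimic libraries, with wide overlap. By Pearson correlation of log2(FPKM + 1) over the 6 libraries, the genes most like Cd14 were Nrbf2 (0.9959), Znhit2 (0.9907) and Lamtor4 (0.989), a description only, since the 6 points share their library effects.

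The rest of the pathway was taken from a list of 47 genes by role. Of these 42 had values, 37 were tested and 0 passed over all genes by limma, 0 by voom. At an unadjusted p under 0.05, 5 were higher and 4 lower by limma, beside 7.96% and 5.26% of all tested genes. By voom 5 were higher and 3 lower, beside 904 and 485 of 10137 genes. The 3 mimic values all lay above the NC values in 7 of the 37 and all below in 4, beside 12.6% and 7.49% of all tested genes. The median log2 fold change was 0.11, with 24 genes higher and 13 lower. With the trend with length and GC removed, that median was −0.02, with 18 higher and 19 lower. Tlr5, Tlr11, Tlr12, Lbp and Peli2 were not analysed here.

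The 4 other receptors that were tested read higher on average, without passing; Tlr8, under the filter, had a mean of 0.0506 FPKM in NC and 0.0241 FPKM in mimic libraries, with overlap. Tlr1, the partner of TLR2 for triacylated lipoproteins, read 1.44, 1.05 and 1.10 FPKM in the NC libraries and 1.84, 2.70 and 1.79 FPKM in the mimic libraries, with no overlap (log2 fold change 0.49, SE 0.17, limma adjusted p = 0.337). Cd180, a TLR4 relative that restrains it in myeloid cells, stood at 0.54 (SE 0.22) and overlapped between groups. Tlr13, a mouse sensor of bacterial ribosomal RNA, stood at 0.56 (SE 0.36) and Tlr6 at 0.32 (SE 0.25). For Tlr13 mimic libraries 1 and 2 read 3.36 and 3.19 FPKM and mimic library 3 read 0.936, against 1.59, 1.71 and 0.569 in the NC libraries, so that library 3 was the lowest of both groups. Without mimic library 3 the values of Tlr13 and Tlr6 were 0.94 and 0.61 (limma adjusted p = 0.273 for both). Without mimic library 1 they were 0.36 and 0.13, and without NC library 3 that of Tlr13 was 0.31 and that of Cd180 0.32. Tlr1 and Tlr6 are near copies of each other in part of their length, so their split is uncertain. Together 7 of the 13 receptors on both lists passed the filter on low values, and those 7 had positive log2 fold changes, beside 5728 of 10166 tested genes, which is a description only.

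The receptor chaperone Unc93b1, which carries the endosomal receptors out of the endoplasmic reticulum, had the smallest p on the list, in the other direction. Unc93b1 (ENSMUSG00000036908) read 66.1, 65.6 and 52.9 FPKM in the NC libraries and 42.9, 39.5 and 46.6 FPKM in the mimic libraries. Every mimic value lay below every NC value, with library 3 of each group nearest to the other group (log2 fold change −0.50, SE 0.13, limma adjusted p = 0.332). After removal of the length and GC trend it was −0.31 (adjusted p = 0.437), and without NC library 3 it was −0.61 (adjusted p = 0.00758). Tlr7 over Unc93b1 was 0.0375, 0.0409 and 0.0403 on the FPKM scale in the NC libraries and 0.156, 0.143 and 0.0533 in the mimic libraries. That ratio was also chosen after the values were seen and has no test. It sets a gene that read higher over one that read lower, so a gap between groups follows from the choice.

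Further down the pathway stood 4 listed genes of the TAK1 kinase complex. Of these, 2 (Map3k7 and Tab2) read higher with no overlap, beside 12.6% of all tested genes. This group was not a role on the list, and Map3k7 and Tab2 were named for their small p. In their listed role, kinases and ubiquitin enzymes, 3 of 13 tested genes read higher with no overlap. Tab1 stood at 0.053 (SE 0.17) and Tab3 at 0.003 (SE 0.20), both with overlap. Map3k7, the kinase TAK1, had 14.1, 14.2 and 13.1 FPKM in the NC libraries and 18.2, 18.6 and 17.8 FPKM in the mimic libraries (log2 fold change 0.38, SE 0.10, limma adjusted p = 0.332). Here library 3 of each group stayed with its own group. Tab2, which ties TAK1 to ubiquitin chains, stood at 0.32 (SE 0.10, limma adjusted p = 0.332), also with no overlap. Without NC library 3 both passed by limma, Map3k7 at 0.34 (adjusted p = 0.0221) and Tab2 at 0.37 (adjusted p = 0.0181). In that fit 11.6% of all tested genes were called higher. In all 6 libraries, after trend removal, Map3k7 stood at 0.21 (adjusted p = 0.498) and Tab2 at 0.24 (adjusted p = 0.522).

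All 3 interferon regulatory factors on the list read lower with no overlap, beside 7.49% of all tested genes, and 0 of them passed limma. Irf7, the factor that TLR7 and TLR9 use to induce type I interferon, read 15.4, 15.2 and 6.99 FPKM in the NC libraries and 6.45, 6.44 and 6.56 FPKM in the mimic libraries. NC library 3 lay next to the mimic libraries and far from the other NC libraries. Its log2 fold change was −0.78 (SE 0.27, limma adjusted p = 0.337) and passed without NC library 3 at −1.12 (adjusted p = 0.00420). After trend removal it did not pass with all 6 libraries (−0.64, limma adjusted p = 0.420) and passed without NC library 3 (−0.84, adjusted p = 0.0129). Irf3, the factor used by the TRIF branch, stood at −0.46 (SE 0.17, limma adjusted p = 0.342; −0.30 after trend removal, adjusted p = 0.602) and Irf5, an inflammatory factor of the MYD88 branch, at −0.30 (SE 0.13, limma adjusted p = 0.368).

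**Figure D3:**
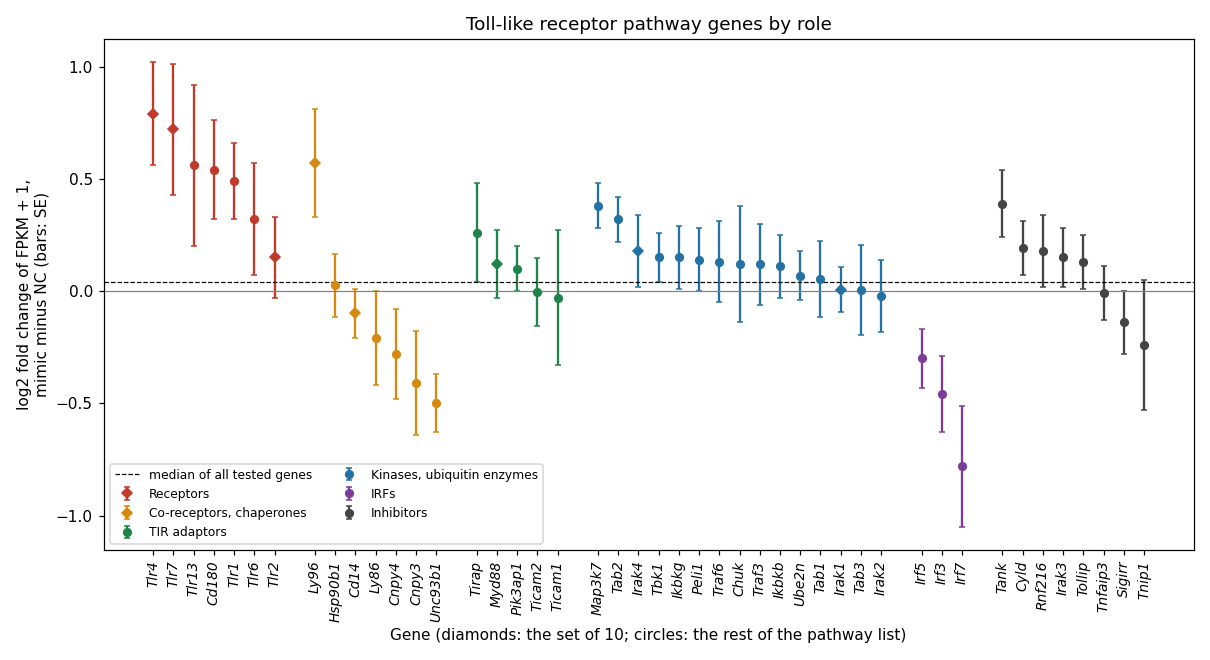
Log2 fold change of FPKM + 1, mimic minus NC, for the tested genes of the set (diamonds) and of the pathway list (circles), grouped by role, with SE bars; the dashed line is the median of all tested genes (0.041). The receptors (39.4% to 49.3% GC) lie above 0 and the 3 interferon regulatory factors (55.4% to 56.7% GC) lie below 0. None of the genes passed the test.

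Matches to the miR-125b-5p seed were present in 12 of the 47 listed genes (25.5%). The 4 tested ones with the longest match were Tnfaip3, Traf6, Cyld and Pik3ap1, and the log2 fold changes of all 4 ran from −0.0071 to 0.19. Tnfaip3 had the one negative value, −0.0071 (SE 0.12), and its match is not printed. The other 3, picked after their values were seen, are shown with their context.
Traf6: ggagtctagttCTCAGGGAgccctacgact
Cyld: agaggacagggCTCAGGGAaggcaagcctg
Pik3ap1: accatccccttCTCAGGGAttttgatcaaa
They lie on GRCm38 chromosome 2, bases 101698839 to 101698846 (plus strand); chromosome 8, bases 88751030 to 88751037 (plus strand); and chromosome 19, bases 41272502 to 41272509 (minus strand). Traf6, the ubiquitin ligase that IRAK1 engages, had a log2 fold change of 0.13 (SE 0.18). Cyld, a deubiquitinase that restrains NF-κB signalling, stood at 0.19 (SE 0.12). Pik3ap1, an adaptor that links receptors to PI3K, stood at 0.095 (SE 0.10). Over both lists 10 genes with a match were tested, 7 with a positive and 3 with a negative log2 fold change (median 0.11), and 0 had an unadjusted limma p under 0.05.

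Fold changes went with base composition across the transcriptome, and the members followed the same order. Over 10128 tested genes, which are not independent replicates, Spearman's rho between the log2 fold change and the GC content of the longest transcript was −0.549, and with exon length 0.383. Over the 8 members rho with GC was −0.905. The members highest with the mimic were the poorest in GC, Tlr4 at 39.4%, Tlr7 at 41.0% and Ly96 at 41.1%, and Cd14 was at 52.5%. On the pathway list, the 4 other tested receptors had 43.6% to 46.0% GC. Irf3, Irf5 and Irf7 had 55.4% to 56.7% and Unc93b1 had 57.3%. The part of GC in the differences by role was not tested. With the length and GC trend removed from each library, Tlr4 stood at 0.53 (SE 0.18, limma adjusted p = 0.446), Tlr7 at 0.54 (SE 0.27, adjusted p = 0.574) and Ly96 at 0.46 (SE 0.26, adjusted p = 0.615). All 8 log2 fold changes of the members were then positive, beside 5073 of 10128 genes, and none passed. Among the 8, Cd14 at 0.051 (SE 0.10) and Irak1 at 0.063 (SE 0.13) lay within 1 SE of 0.

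**Figure D4:**
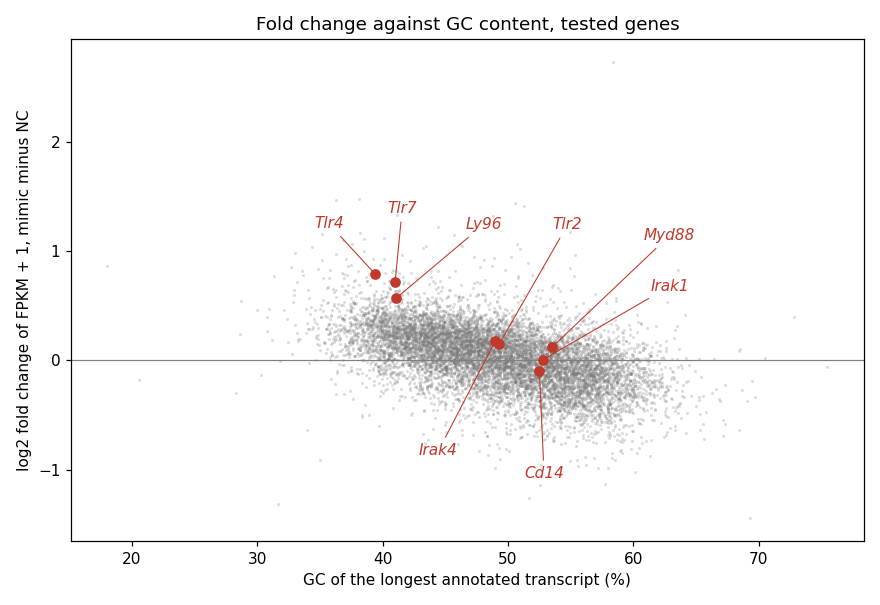
Log2 fold change of FPKM + 1, mimic minus NC, against the GC content (%) of the longest annotated transcript for the tested genes (grey points), with the 8 tested members in red. Fold changes are lower at higher GC, and Tlr4, Tlr7 and Ly96 lie at the GC-poor end.

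Calls appeared in numbers once NC library 3 was left out, and the members' count there was read against all genes. Without it 1 of the 8 members, Tlr4, was called higher, beside 11.6% of all tested genes, and 0 were called lower, beside 12.2%. With libraries 3 of both groups left out, a fit chosen after the data were seen, 3 of the 8 (Tlr2, Tlr4 and Tlr7) were called higher, beside 23.1% of all tested genes called higher. With the trend removed and NC library 3 left out, 0 of the 8 were called, beside 3.74% of genes, and Tlr4 stood at 0.55 (limma adjusted p = 0.156).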

How the data were processed

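RNA from 6 transfected RAW264.7 samples was sequenced with a SMARTer mRNA kit, per the labels. The deposited table holds 1 FPKM value per gene and sample. The submitters' processing notes name the tools fastp, HISAT2 and DESeq2 and the build mm10; versions, counting tool, annotation, strand setting and filter rule: not given in the sources used here. Every gene had a value above 0 in 2 or more samples. Groups and replicate numbers came from the sample titles.

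Of the 16665 identifiers, 16582 matched GENCODE M21 (GRCm38) and 83 did not. The main test was limma (version 3.58.1, under R 4.3.3), two-sided, with its mean-variance trend, on log2 of FPKM plus 1 for the 10166 genes whose mean reached 1 FPKM, and Benjamini-Hochberg adjustment over all of them at 0.05. Fold changes on that scale understate the change of low genes. The fit and the trend removal were also run on simulated data with independent noise and no library set apart. Those runs do not show how the fit behaves with a library such as NC library 3. FPKM values are not counts, so depth was recovered from low values, of which 98.5% to 99.0% were whole within 0.1 fragment. For trend removal, each library's deviation from the gene mean was regressed on splines (3 df each) of log2 exon length and GC.

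Deviations from the group mean correlated at 0.287, 0.183 and 0.339 over genes for same-numbered samples 1, 2 and 3. Mimic 2 with NC 1 was positive too (0.0869), while pairs of a library 3 with a library 1 or 2 ran from −0.345 to −0.151. Since libraries 3 stood against libraries 1 and 2, these values do not show pairing by number. The labels do not say what a number shares, and mimic 1 correlated slightly more with NC 2 (0.308). The main test did not pair the samples, and a block for the replicate number was fitted only as an alternative. Named were all members, the 6 pathway genes with the smallest p, pathway receptors above 1 FPKM, the 3 genes most like Cd14 and members with a seed match. Tlr3 and Tlr9, under the filter, got an exact permutation test. The members, lists and alternatives were chosen with earlier results of these data known. A further seed match on the pathway list is not reported here.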

Additional observations from a re-analysis of the deposited data

How the results depend on the processing

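The count of 0 called genes, 0 called members and 0 called pathway genes held under a pseudocount of 0.1, no filter, equal library sums, quantile normalisation, voom, trend removal and trend removal without mimic library 3. With the replicate block it held too, 0 genes being called with or without the trend (Tlr4 0.79, adjusted p = 0.266), and the block changed no other call. With 1 library left out the counts ranged from 0 to 2412 genes, 0 to 1 members and 0 to 9 pathway genes, the high ends without NC library 3. Libraries 3 of both groups left out gave 4377 genes, 3 members and 19 pathway genes; array weights, whose REML estimate did not converge and gave NC library 3 a weight of 0.086, gave 5276, 2 and 24; trend removal without NC library 3 gave 379 genes, 0 members and 2 pathway genes. The sign of Cd14 turned under quantile normalisation (0.0448) and with the trend removed (0.0507, with or without the replicate block). It turned too with the trend removed and NC library 3 (0.112) or mimic library 3 (0.0733) left out. Leaving out either library alone did not turn it. On equal library sums Cd14 stood at 0.00747, above 0 but under the median of all genes there (0.153). Irak1, near 0, turned under quantile normalisation (−0.0130), array weights (−0.0364) and without libraries 3 (−0.0284), and spanned −0.0282 to 0.0245 with 1 library left out. The log2 difference of Tlr3 (0.0117) spanned −0.0400 to 0.0672 with 1 library left out and was 0.115 with a pseudocount of 0.1. The cause was not tested. Depth limits Tlr3, Tlr9 and Ly96 most.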
